A study of Caenorhabditis elegans with 6 samples.

Results

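The germ granule and early germline genes described here are 10 genes: glh-1, glh-2, glh-3, glh-4, deps-1, nos-1, nos-2, meg-1, meg-2 and gld-1. They were found by gene symbol in the annotation of the array, which names 17118 genes through probe sets of 1 gene. All 10 were present, through 14 probe sets, and 5 of them (nos-2, gld-1, glh-1, nos-1 and meg-1) had a signal high enough to be tested. Their RNA was measured on 6 Affymetrix arrays of whole Caenorhabditis elegans, a nematode worm, grown at 20 °C without treatment. The wild-type strain N2 gave 3 arrays, and a strain with the tm1978 allele of hlh-30 gave the other 3. HLH-30 is a bHLH transcription factor related to mammalian TFEB, which is known to activate genes of autophagy and lysosomes. Each array carried 1 biological replicate made by mixing RNA of embryos with RNA of L1 and L2 larvae, in proportions that the labels do not give, so that a value averages over these stages and all tissues of both sets of animals. The sources used here do not say whether the mutant strain was outcrossed.

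Germ granules, called P granules in the worm, are condensates of RNA and protein that are inherited by the germline blastomeres of the embryo and later sit around the nuclei of germ cells. The GLH proteins are Vasa-like DEAD-box RNA helicases of these granules, DEPS-1 is a granule protein needed for normal accumulation of other granule components, and MEG-1 and MEG-2 are disordered proteins of the granules of the embryo. NOS-1 and NOS-2 belong to the Nanos family, RNA-binding proteins needed for the primordial germ cells, and nos-2 RNA is supplied by the mother and translated in the germline founder. GLD-1 is a STAR-family RNA-binding protein that represses translation in the germ line and is needed for oocyte development. A young larva holds few germ cells, and the adult gonad, where several of these genes are known for high expression, is not among the labelled stages.

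Across the series, the hlh-30 transcript was read by 3 probe sets, each of which kept the mutant arrays below the wild-type arrays, and at the brightest the wild-type arrays read at least 12.05 and the mutant arrays at most 10.65 on the log2 scale. The log2 differences of these hlh-30 probe sets were −1.88, −2.15 and −2.28. None was called, with limma adjusted p of 0.128, 0.121 and 0.260, so differences of that size can go uncalled here. Values ran from a floor of 2.04 to 16.95. On each array 33.0% to 33.8% of probe sets were within 0.005 of the floor. The arrays that stood furthest from their groups were wild type 3 and mutant 3, with correlations to the mean of the other arrays of their genotype of 0.978 and 0.963, against 0.987 to 0.993 for the others. Results for the members and for the gene lists are therefore given with and without them. Markers of the labelled whole animals were present, since 16 of 16 body wall muscle, 13 of 13 intestine, 12 of 12 pharynx and 14 of 15 neuron genes on the array passed the filter. Of adult markers, 1 of 17 sperm genes and 1 of 5 yolk genes passed, and of oocyte and eggshell genes 8 of 13 passed.

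Over all 10 genes the signal was divided between bright and dark probe sets. A probe set was tested if it reached a log2 value of 4 on at least 3 of the 6 arrays, which 6 of the 14 member probe sets did. The helicase genes glh-2 and glh-3 and the granule gene meg-2 lay at the floor of 2.04 on all 6 arrays, as did 30.8% of all probe sets on the array. glh-4 read between 2.97 and 3.03. deps-1 read 3.46, 2.73 and 2.73 on the wild-type arrays and 2.43, 2.40 and 3.20 on the mutant arrays. These 5 genes stayed under the filter value of 4 on every array, so no fold is given for them.

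**Figure D1:**
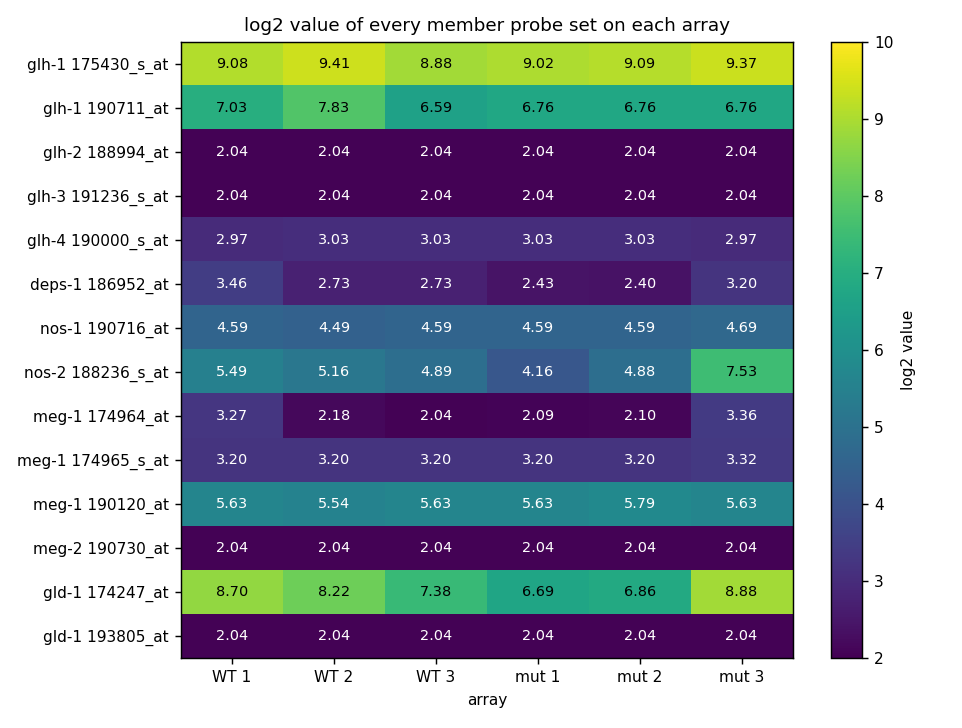
Each cell gives the log2 value of 1 probe set (rows) on 1 array (columns, WT for wild type and mut for hlh-30(tm1978)), and the colour scale runs from 2 to 10. The probe sets of glh-2, glh-3 and meg-2 and the second one of gld-1 stay at 2.04 on all 6 arrays, while nos-2 and gld-1 vary most between arrays.

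Probe sets of the same gene did not read alike. For gld-1, 174247_at read between 6.69 and 8.88 and 193805_at stayed at the floor of 2.04 on all 6 arrays. For meg-1, 190120_at read between 5.54 and 5.79, 174964_at between 2.04 and 3.36 and 174965_s_at between 3.20 and 3.32. Only the brightest probe set of each gene stands for it below, and levels of different probe sets are not compared because brightness can differ between probe sets for reasons other than RNA amount. In the current gene catalogue (RefSeq, WBcel235), where all 10 members were matched by gene number, meg-1 and meg-2 are neighbouring protein-coding genes.

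The Nanos gene nos-2 (Entrez gene 174158, 188236_s_at) read 5.49, 5.16 and 4.89 on the wild-type arrays and 4.16, 4.88 and 7.53 on the mutant arrays. The mutant group held both the highest and the lowest array, so the genotypes overlapped. The means were 5.18 ± 0.30 (SD, n = 3) in wild type and 5.52 ± 1.77 (SD, n = 3) in the mutant. The log2 difference was 0.34 (SE 0.93, 95% interval −2.04 to 2.73), with a limma adjusted p of 0.926, where the adjustment covers every probe set tested. The interval reaches from a 4.11-fold fall to a 6.62-fold rise. Mutant 3 decided the sign: without it the log2 difference was −0.66 (SE 0.31, limma adjusted p 0.548), and without wild type 3 as well it was −0.80 (SE 0.34, limma adjusted p 0.297). A value from such mixed whole animals does not separate the number of germ cells, the RNA per germ cell and the share of each stage.

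The translational repressor gld-1 (Entrez gene 172532, 174247_at) read 8.70, 8.22 and 7.38 on the wild-type arrays and 6.69, 6.86 and 8.88 on the mutant arrays. Mutants 1 and 2 lay under every wild-type array and mutant 3 lay above them all, so the genotypes overlapped. The wild-type mean was 8.10 ± 0.67 (SD, n = 3) and the mutant mean 7.48 ± 1.21 (SD, n = 3), which gives a log2 difference of −0.62 (SE 0.72, 95% interval −2.46 to 1.22) with a limma adjusted p of 0.808. Without mutant 3 the log2 difference was −1.32 (SE 0.44, limma unadjusted p 0.0419 and adjusted p 0.424), and without both arrays numbered 3 it was −1.68 (SE 0.21, limma adjusted p 0.0760). With array quality weights, a setting of limma that counts noisier arrays less, gld-1 was called lower in the mutant, with a log2 difference of −1.62 (SE 0.28) and a limma adjusted p of 0.0412. In that setting 447 of 9113 genes, or 4.91%, were called lower, mutant 1 had a weight of 6.76 and wild type 3 and mutant 3 had weights of 0.266 and 0.119. Over the 16 alternative settings run for gld-1 the limma adjusted p ranged from 0.0412 to 1.0.

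The helicase gene glh-1 (Entrez gene 172414, 175430_s_at), the member with the narrowest interval among those whose 6 values all differ, read 9.08, 9.41 and 8.88 on the wild-type arrays and 9.02, 9.09 and 9.37 on the mutant arrays. The wild-type arrays held both the highest and the lowest value. The wild-type mean was 9.12 ± 0.26 (SD, n = 3) and the mutant mean 9.16 ± 0.18 (SD, n = 3), which gives a log2 difference of 0.038 (SE 0.17, 95% interval −0.40 to 0.48) with a limma adjusted p of 0.966. The interval leaves room for a fall of up to 1.32-fold or a rise of up to 1.39-fold. The second probe set of glh-1, 190711_at, read 7.03, 7.83 and 6.59 in wild type and exactly 6.76 on all 3 mutant arrays, with a log2 difference of −0.39 (SE 0.33, limma adjusted p 0.771). The sign of glh-1 therefore differed between its probe sets, and it also turned below 0 at the brighter one without wild type 3 (−0.081) and without mutant 3 (−0.066).

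**Figure D2:**
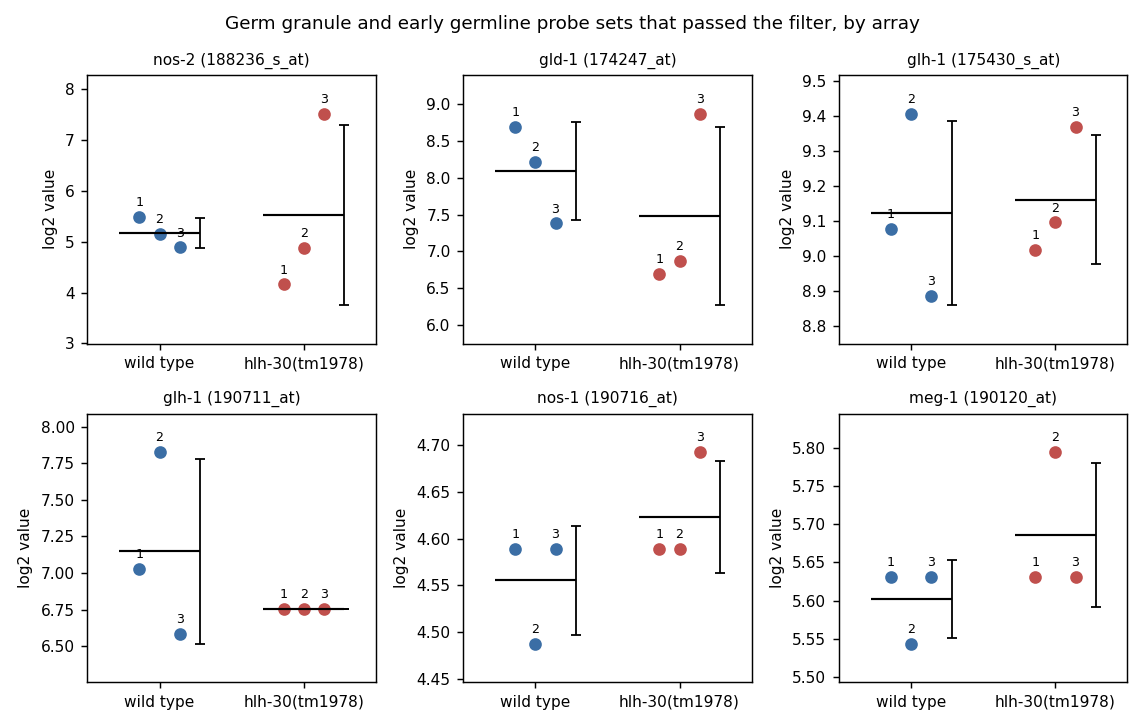
Each panel shows 1 tested probe set, with log2 values on the vertical axis (a scale of its own in each panel), a point per array numbered by replicate, the genotype mean as a line and the SD as the bar at its right. Mutant 3 is the highest array for nos-2, gld-1 and nos-1, and 190711_at has the same value on all 3 mutant arrays.

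The Nanos gene nos-1 (Entrez gene 191735, 190716_at) read 4.59, 4.49 and 4.59 on the wild-type arrays and 4.59, 4.59 and 4.69 on the mutant arrays, with a log2 difference of 0.068 (SE 0.058, limma adjusted p 0.778). The granule gene meg-1 (Entrez gene 181502, 190120_at) read 5.63, 5.54 and 5.63 in wild type and 5.63, 5.79 and 5.63 in the mutant, with a log2 difference of 0.083 (SE 0.067, limma adjusted p 0.763). Both have the same deposited value on 4 of the 6 arrays, and so did 12.3% of the tested probe sets, counting 4 or more equal values. Their narrow 95% intervals, −0.081 to 0.22 for nos-1 and −0.090 to 0.26 for meg-1, rest on these repeated values.

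None of the 5 tested members passed the limma threshold, an adjusted p under 0.05, in either direction with all arrays. Over all 9113 genes tested 0.132% were called lower and 0.011% higher, so a count of 0 among 5 is near the background. At an unadjusted p under 0.05 there was also no member, beside 8.59% of all genes. The arrays of the genotypes overlapped for all 5 members, and did not overlap for 13.6% of all genes, 9.87% lower and 3.76% higher in the mutant. The fitted difference was above 0 for 4 tested members and below 0 for 1, beside 52.1% of all genes below 0. Their median was 0.068 on the log2 scale, beside −0.010 over all genes tested, and it was −0.19 without both arrays numbered 3, beside −0.031 over all genes.

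**Figure D3:**
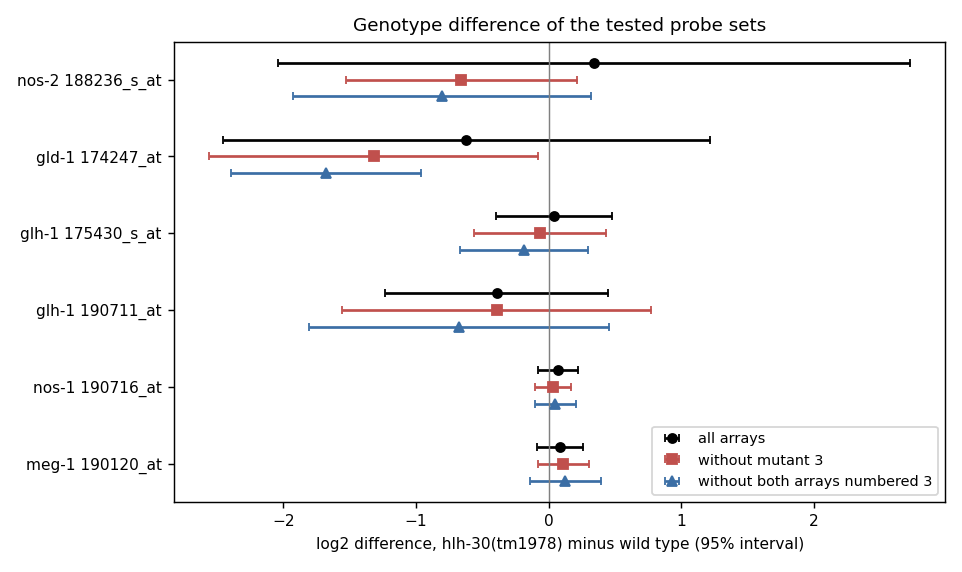
Log2 differences between hlh-30(tm1978) and wild type (horizontal axis) with 95% intervals from limma, for the 6 tested probe sets, with all arrays and with the arrays numbered 3 left out. With all arrays every interval includes 0. The gld-1 interval excludes 0 without mutant 3 (−2.56 to −0.079) and without both arrays numbered 3 (−2.39 to −0.96). Its limma adjusted p is 0.424 and 0.0760 in these settings. In the latter, 26.1% of all genes were at an unadjusted p under 0.05 (limma). The estimates for nos-2 move from 0.34 to −0.80 and those for gld-1 from −0.62 to −1.68 when both arrays numbered 3 are left out.

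The largest differences among the members were between mutant arrays. nos-2 was 8.02-fold higher on mutant 3 than the mean of mutants 1 and 2 (log2 deviation 3.00), a size of deviation that ranked 60 among the 9113 genes. gld-1 was 4.28-fold higher there (log2 deviation 2.10, rank 197). Those ranks place nos-2 in the top 0.658% and gld-1 in the top 2.16% of genes by deviation of mutant 3. glh-1, nos-1 and meg-1 deviated by 0.31, 0.10 and −0.081. Mutant 3 was the highest of the 6 arrays for 3 of the 5 tested members, and for 27.9% of all genes.

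**Figure D4:**
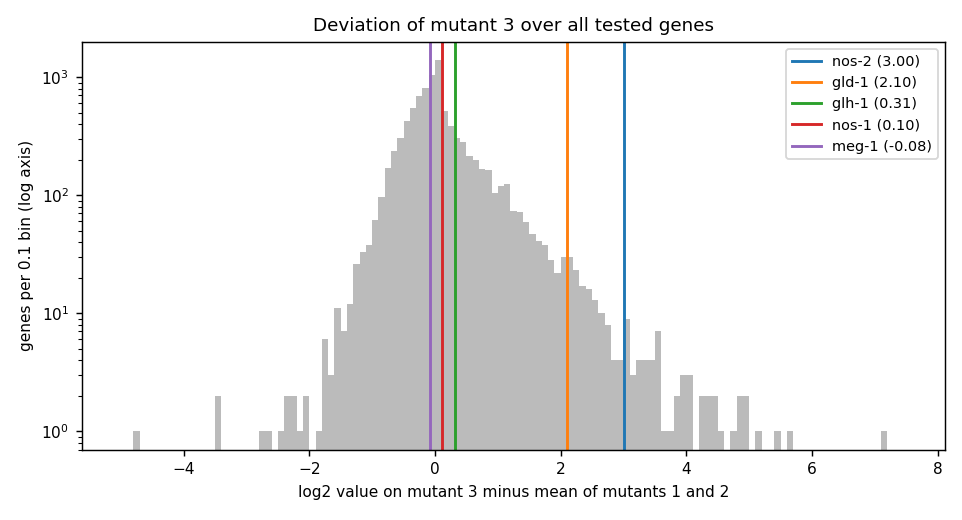
Histogram of the log2 value on mutant 3 minus the mean of mutants 1 and 2 over the 9113 genes tested (genes per bin on a log axis), with vertical lines at the 5 tested members. nos-2 at 3.00 and gld-1 at 2.10 lie in the right tail, and glh-1, nos-1 and meg-1 lie near 0.

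nos-2 and gld-1 also put the 6 arrays in the same order. Both were highest on mutant 3, followed by wild types 1, 2 and 3 and then mutants 2 and 1. For nos-2 the order rests in part on nearly equal values on wild type 3 (4.891) and mutant 2 (4.885). Only the 5380 tested genes with 6 distinct values could match. Counting nos-2 and gld-1 themselves, 55 genes had this order, of the 5380 that could match and the 9113 tested (0.604% of those tested). Among them were pos-1, which encodes a CCCH zinc-finger RNA-binding protein of the germline blastomeres, and htp-2, which encodes a HORMA-domain protein of meiotic chromosomes. mex-6, a CCCH gene that acts in embryonic polarity, shared it too. mex-6 and the matches of pos-1 and htp-2 were picked out after their values were seen.

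Genes for CCCH and other RNA-binding proteins of the germ plasm and early embryo were also mostly highest on mutant 3. Of 11 on the array 9 were tested, all but mex-1 and oma-1, and 8 of the 9 were highest on mutant 3, where their median deviation from mutants 1 and 2 was 2.46. Relative to each gene's mean over the 6 arrays, the median of the list lay at 0.23, −0.042 and −0.51 on the wild-type arrays. On the mutant arrays it lay at −0.70, −0.67 and 1.61. On wild type 3, 8 of the 9 were lower than the mean of wild types 1 and 2, with a median deviation of −0.81. pos-1 read 11.59, 11.07 and 10.21 on the wild-type arrays and 8.96, 9.30 and 12.69 on the mutant arrays, a log2 difference of −0.64 (SE 1.12, limma adjusted p 0.875). The mutant arrays again lay on both sides of the wild-type arrays. The 1 gene of the 9 that was not highest on mutant 3 was ccch-1, a gene named for its CCCH zinc fingers, which read highest on wild type 3 (10.04) and lowest on mutant 3 (8.73), a deviation of −0.24 from mutants 1 and 2. pie-1, which encodes a repressor of transcription in the germline blastomeres, read 5.09, 4.82 and 4.82 in wild type and 4.82, 4.64 and 6.48 in the mutant. mex-5, another CCCH polarity gene, read 7.27, 6.91 and 6.28 in wild type and 6.65, 6.60 and 7.97 in the mutant. With all arrays 5 of the 9 genes of the list were fitted below 0, with a median of −0.020 and none called (limma). Without both arrays numbered 3 all 9 genes of the list had a fitted difference below 0, beside 55.7% of all genes, with a median of −0.88. None was called there (limma), and 4 were at an unadjusted p under 0.05, beside 26.1% of all genes in that setting.

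Most genes that are switched on in the embryo itself were highest on mutant 3 as well. Of 15 on the array 6 were tested, of which 5 were highest on mutant 3, and the median deviation of mutant 3 from mutants 1 and 2 was 0.77. The median of that list lay at 0.24, 0.19 and −0.29 on the wild-type arrays and at −0.23, −0.25 and 0.40 on the mutant arrays. On wild type 3 all 6 were lower than the mean of wild types 1 and 2, with a median deviation of −0.50. pes-10, an early zygotic gene, read 7.21, 6.74 and 4.81 in wild type and 4.31, 3.93 and 8.38 in the mutant. vet-6, the 1 gene of the 6 that was not highest on mutant 3, read 9.17, 8.85 and 8.58 in wild type and 8.47, 7.93 and 9.10 in the mutant. end-1, a GATA factor of the endoderm, read 8.49, 8.01 and 8.01 in wild type and 8.01, 8.01 and 9.01 in the mutant. The median genotype difference of these 6 genes was −0.023 with all arrays, with 3 below 0 and none called (limma). Without both arrays numbered 3 it was −0.39, with all 6 below 0, beside 55.7% of all genes. None was called there, and 3 were at an unadjusted p under 0.05 (limma), beside 26.1% of all genes. Lists of tissue genes were lower on mutant 3 than on mutants 1 and 2, with median deviations of −0.30 for body wall muscle, −0.31 for intestine, −0.20 for neurons, −0.093 for pharynx and −0.043 for hypodermis.

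The genotype differences of these tissue lists also depended on the arrays numbered 3. Of the 16 muscle genes 14 were fitted below 0 with all arrays (median −0.55), 10 were at an unadjusted p under 0.05 and 1, the troponin T gene tnt-2, passed the test. Without both arrays numbered 3 the muscle median was −0.27, with 11 below 0. The median of the 13 intestine genes was −0.18 with all arrays and −0.14 without these 2, and that of the 13 hypodermis genes 0.31 and 0.058. The medians of the 14 neuron and 12 pharynx genes changed sign, from −0.13 to 0.028 and from −0.096 to 0.071. No gene of these 4 lists was called with all arrays (limma), with 4 intestine, 1 hypodermis, 1 neuron and 0 pharynx genes at an unadjusted p under 0.05. Over all 9113 genes 8.59% were under that p and 0.143% were called in either direction. The hypodermis and neuron counts are near that background. The germ plasm, zygotic and tissue lists were chosen with earlier results of these data known, and their part in the nos-2 and gld-1 values was not tested.

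**Figure D5:**
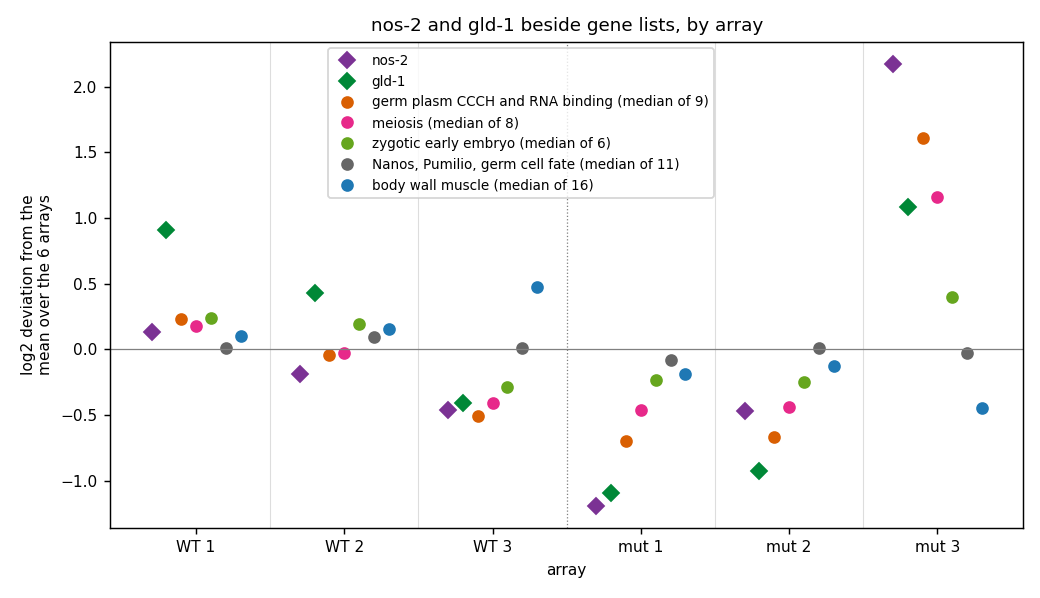
Log2 deviation from the mean over the 6 arrays (vertical axis) of nos-2 and gld-1 (diamonds) and of the median over each gene list (circles), by array. nos-2, gld-1 and the germ plasm, meiosis and zygotic lists are highest on mutant 3, and the body wall muscle list is lowest there.

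Other germ granule genes varied less than nos-2 and gld-1. Of 6 tested, 4 had a fitted difference below 0 and none was called (limma). Mutant 3 was the highest array for 3 of the 6, beside 27.9% of all genes, with a median deviation of 0.056 from mutants 1 and 2. Neither here nor in the other germline lists below was any gene at an unadjusted p under 0.05 with all arrays. Their median log2 difference was −0.043 with all arrays and −0.088 without both arrays numbered 3. The largest difference in size was in ife-1, an eIF4E-family cap-binding protein of the granules, at 0.28 (SE 0.27, limma adjusted p 0.789), where mutant 3 read 12.46 and the other 5 arrays between 11.46 and 11.70. car-1, an RNA-binding protein of the Lsm14 type, read −0.19 (SE 0.14, limma adjusted p 0.744). The DEAD-box helicase gene cgh-1 read 0.044 (SE 0.071, limma adjusted p 0.860).

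Germline small RNA genes, whose Argonaute and helicase products reside in or beside the granules, had 9 of 13 fitted differences below 0, a median of −0.046 (−0.015 without both arrays numbered 3) and none called. The arrays did not overlap for 2 of them, lower in the mutant, beside 9.87% of all genes. These were mut-15 (−0.14, SE 0.082, limma adjusted p 0.694) and mut-16 (−0.044, SE 0.040, limma adjusted p 0.789), both genes of small RNA amplification in mutator foci. mut-16 had the same deposited value on all 3 wild-type arrays, and mut-15 on 2 of them. Nanos partners, Pumilio-family genes and other germ cell fate genes had 8 of 11 differences below 0, a median of −0.12 (−0.070 without both arrays numbered 3) and none called. Mutant 3 was the highest array for 2 of the 13 small RNA genes and 4 of these 11. In that group gld-2, the cytoplasmic poly(A) polymerase that acts beside gld-1 in the entry into meiosis, read 9.31, 9.86 and 9.56 in wild type and 9.29, 9.30 and 9.24 in the mutant. Its arrays did not overlap, which held for 1 of the 11 genes, near the 9.87% of all genes that were lower without overlap. The log2 difference of gld-2 was −0.30 (SE 0.15, limma adjusted p 0.642).

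Transcripts known to be bound by GLD-1 had 8 of 11 differences above 0, a median of 0.095 and none called. With all arrays the highest was gna-2, an enzyme of amino sugar synthesis needed for the eggshell, at 0.71 (SE 0.65, limma adjusted p 0.789), which read 10.04 on mutant 3 and between 7.83 and 7.90 elsewhere. Without both arrays numbered 3 the median was −0.16. Mutant 3 was the highest array for 8 of the 11, with a median deviation of 0.82 from mutants 1 and 2. Oocyte and eggshell genes had 7 of 8 differences above 0, a median of 0.18 and none called, and without both arrays numbered 3 the median was −0.017. The remaining gene, perm-4, had the same deposited value on all 6 arrays and so no difference. rme-2 and egg-2 had the same value on 5 and 4 of the 6 arrays. Of these 8, 5 were highest on mutant 3, with a median deviation of 0.69. The lists share genes, so their counts are not independent. Of the GLD-1 list, oma-2, mex-3 and spn-4 are also in the germ plasm list. Its genes gna-2, puf-5 and rme-2 are also in the oocyte list, and glp-1, mes-3 and puf-5 in the germ cell fate list.

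Meiosis genes had 6 of 8 differences above 0, a median of 0.13 and none called with all arrays. Mutant 3 was the highest array for 6 of the 8, with a median deviation of 1.88 from mutants 1 and 2. Their median without both arrays numbered 3 was −0.40, and 2 were then called lower, syp-3 (−0.80, SE 0.026) and dsb-2 (−0.77, SE 0.021), both with a limma adjusted p of 0.0420. In that setting 177 genes, or 1.94% of all tested, were called lower. syp-3 had the same deposited value, 5.09, on mutants 1 and 2, and dsb-2 read 7.01 and 7.02 there. The small SEs of these genes rest on such nearly repeated values. With all arrays both were fitted above 0, syp-3 at 0.18 (SE 0.67) and dsb-2 at 0.15 (SE 0.60). syp-3 encodes a protein of the synaptonemal complex and dsb-2 a protein needed for meiotic DNA breaks, and both were picked out after their values were seen.

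The genes whose 6 values were most like those of the tested members were F21D5.6, sdz-4, gop-2, apn-1, which encodes an endonuclease of DNA base repair, and C56A3.5. Likeness was measured as Pearson's r with the mean of the 5 tested members, each centred on its own mean, and since these were the highest of all genes the values, 0.991 to 0.996 over 6 arrays, are a description. The mean is governed by nos-2 and gld-1, the members that vary most. F21D5.6 read 10.90, 10.78 and 10.66 in wild type and 10.44, 10.58 and 11.22 in the mutant. Their log2 differences between the genotypes ran from −0.074 to 0.049, and their deviations on mutant 3 from 0.42 to 1.18.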

How the data were processed

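RNA of 3 wild-type and 3 hlh-30(tm1978) samples, each a combination of embryos, L1 and L2 larvae per the labels' protocols, was hybridised to separate arrays. The deposited values, 1 per probe set and array, were taken as log2, a scale inferred from their range and from the named tools. GCRMA and limma were used per the submitters' processing notes, with versions and settings not given in the sources used here. Scanner intensities, detection calls and scan dates were not used here. Precision is limited by having 3 arrays a genotype.

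Genotypes came from the sample titles. After 77 control probe sets were left out, 12060 of 22548 probe sets had a log2 value of at least 4 on at least 3 arrays and were tested with limma 3.58.1 in R 4.3.3 (lmFit, eBayes, genotype as the only term), and p-values were adjusted over all of them by the Benjamini-Hochberg method. For each gene the brightest probe set by mean, among those annotated with 1 gene, was used. The fit was tested on simulated data. The members, the related lists and the rule for named genes (all members, up to 4 genes of each list with the smallest p, and the 5 genes most like the members) were chosen with earlier results of these data known. Alternatives were other filters, scalings, variance models, weights and probe set rules, a replicate block and arrays left out.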

Additional observations from a re-analysis of the deposited data

How the results depend on the processing

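Over all genes 13 were called, against 1 with no filter, 589 with array quality weights, 29 with the probe sets of each gene averaged, 0 with the replicate number as a block, 0 to 2 with any 1 array left out and 204 without both arrays numbered 3. The number of members called lower was 0, except 1 (gld-1, −1.62) with array quality weights, and none was called higher under any alternative run. The median of the members, 0.068, was −0.29 over the 2 members left by a filter at a mean of 6, −0.18 with array quality weights, −0.19 without both arrays numbered 3 and −0.066 to 0.11 with any 1 array left out. The difference of nos-2, 0.34, turned to −0.95 with array quality weights and −0.80 without both arrays numbered 3, and ran from −0.66 to 1.03 with any 1 array left out. The difference of glh-1, 0.038, turned to −0.18 with array quality weights, −0.18 with the mean of its probe sets and −0.19 without both arrays numbered 3, and ran from −0.081 to 0.18 with any 1 array left out. gld-1 stayed below 0 (−1.68 to −0.23) and nos-1 and meg-1 above 0 in each alternative that gave them a value, and nos-1, nos-2 and meg-1 had none at the stricter filter. The replicate numbers do not pair the samples by any label, and same-numbered arrays correlated at −0.408, −0.423 and −0.519 in their deviations. Over all alternatives the limma adjusted p ran from 0.0412 to 1.0 for gld-1 and from 0.183 to 1.0 for nos-2. With the replicate block gld-1 read −0.62 (limma adjusted p 0.908) and nos-2 0.34 (limma adjusted p 0.961). The causes of these changes were not tested.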

Other observations

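One more probe set, 184943_s_at, is annotated with 2 genes, nos-2 and T02G5.11, and was not attributed to either. It read 6.67, 6.41 and 5.79 on the wild-type arrays and 6.28, 6.26 and 9.63 on the mutant arrays, so mutant 3 was the highest array there too. Its log2 difference between the genotypes was 1.10 (SE 1.03, limma adjusted p 0.789), and its deviation on mutant 3 from mutants 1 and 2 was 3.37. The dim probe set 174964_at of meg-1, which did not pass the filter, read 3.27, 2.18 and 2.04 on the wild-type arrays and 2.09, 2.10 and 3.36 on the mutant arrays.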
